A study of Mus musculus with 2 samples.

Results

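The barcodes described here are those in which 15% or more of the UMIs (unique molecular identifiers, each counting 1 captured RNA molecule) belonged to the 13 protein genes of the mitochondrial genome. Members were chosen by that share alone, and 1581 of 11123 barcodes met the rule. Of these, 174 were among the 4565 barcodes of the vehicle library and 1407 among the 6558 of the TAK-931 library. Since the mitochondrial share chose the members, its values are given as a description. The mitochondrial limit was not the only one that removed them: the study's filter also asked for over 2000 genes, and 164 vehicle members (94.3%) and 1312 TAK-931 members (93.2%) were at or under that number. Members with over 2000 genes, which the mitochondrial limit alone removed, numbered 10 and 95.

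Both libraries came from female BALB/c mice bearing allografts of J558, a mouse plasmacytoma line that secretes immunoglobulin. The mice were given either the vehicle, 0.5% methylcellulose, or TAK-931, an inhibitor of the replication kinase CDC7, by mouth at 60 mg/kg once daily for 6 days. Each library was 1 allograft, picked by the study as representative, that was dissociated with enzymes, passed through a mesh and freed of red cells by lysis before droplet capture. Treatment, animal and library therefore cannot be told apart, no test between groups was possible, and every interval below is a 95% interval that covers counting error only. The vehicle library held 144767193 UMIs and the TAK-931 library 77369283, and 8 barcode sequences occurred in both, 2 of them members under vehicle and 1 under TAK-931.

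Mitochondrial messenger RNAs are made and kept inside the organelle, while most other messenger RNAs lie in the cytosol and structural RNAs such as Malat1 stay in the nucleus. A cell whose outer membrane leaks can lose cytosolic RNA while organelles and nucleus remain, and this is why a high mitochondrial share is widely used as a sign of a damaged cell. Cells with many mitochondria, muscle for example, can reach a high share while intact. Which of these applied to any barcode here was not tested.

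Members made up 3.81% of the barcodes under vehicle (3.27 to 4.41%) and 21.5% of those under TAK-931 (20.5 to 22.5%), a difference of 17.6 percentage points (16.5 to 18.8). They were small: together they held 0.470% of the vehicle library's UMIs and 4.31% of those of the TAK-931 library, against 3.25% and 18.2% of the mitochondrial UMIs. Among barcodes with over 2000 genes the shares were 0.290% (0.139 to 0.532%) of 3451 and 2.65% (2.15 to 3.23%) of 3583. With over 500 genes, the members were 87 of 4250 (2.05%) under vehicle and 594 of 5229 (11.4%) under TAK-931.

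The share depended on depth in both libraries, and depth differed between them, so the libraries were set side by side within bands of non-mitochondrial UMIs. Under 500 such UMIs, 77.4% of 53 vehicle and 84.4% of 403 TAK-931 barcodes were members, but the files fix most of this: the smallest totals were 501 and 500 UMIs, so that a barcode with 425 or fewer non-mitochondrial UMIs could be in them only as a member. These were 29 and 204 barcodes, and this band is not compared between the libraries. From 500 to under 1000 the shares were 15.5% of 207 and 54.7% of 855, which is 39.3 points apart (32.8 to 44.7). The gap was 35.1 points (29.2 to 40.3) from 1000 to under 2000, where 11.2% of 251 and 46.3% of 609 were members. It was 12.7 points (8.25 to 16.8) from 2000 to under 5000 and 1.96 points (1.39 to 2.57) at 5000 or more, where 27 of 3660 (0.738%) and 103 of 3814 (2.70%) were over the limit. The higher share in the TAK-931 library was thus present in every band from 500 UMIs upward and was widest between 500 and 2000.

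**Figure D1:**
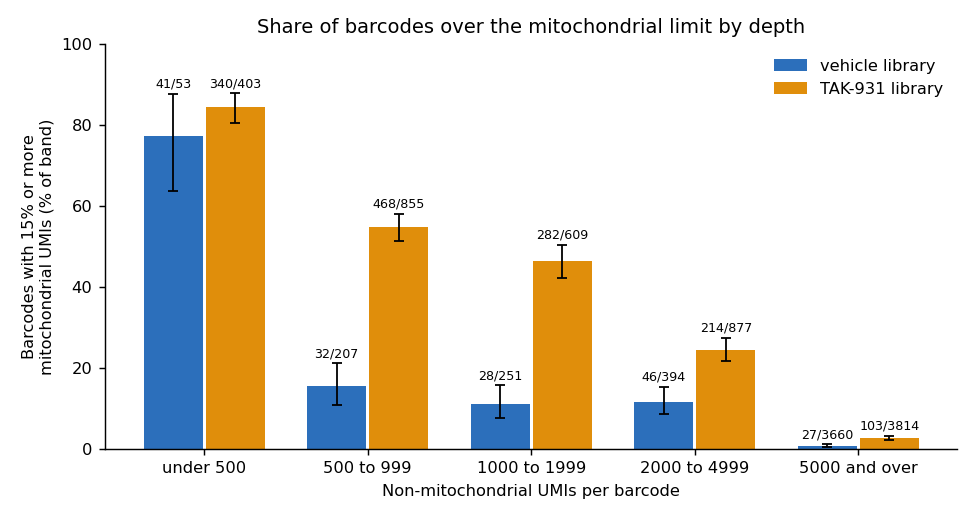
Share of barcodes with 15% or more mitochondrial UMIs (y axis, percent of the band) in 5 bands of non-mitochondrial UMIs per barcode (x axis), for the vehicle and TAK-931 libraries, with exact 95% intervals. The band under 500 UMIs is largely set by the smallest total in the files. Both libraries end under 3% at 5000 or more, and they stand apart between 500 and 5000, with 54.7% against 15.5% from 500 to under 1000.

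The members differed from other barcodes far more in their non-mitochondrial than in their mitochondrial RNA. In the vehicle library the median member had 1469 non-mitochondrial UMIs against 33139 in barcodes under the limit, 22.6-fold fewer, while its mitochondrial UMIs were 1268 against 1881, 1.48-fold fewer. For TAK-931 the medians were 824 against 10451 non-mitochondrial UMIs, 12.7-fold fewer, and 330 against 571 mitochondrial UMIs, 1.73-fold fewer. At the median over all members, a high share thus went with fewer UMIs of both kinds, and far fewer of the non-mitochondrial kind. Median genes detected were 501.5 against 4762 and 417 against 2754. The median member's mitochondrial share was 30.7% under vehicle and 25.7% under TAK-931, against 5.05% and 5.55% under the limit. TAK-931 members with over 2000 genes had a median of 1792 mitochondrial UMIs against 814 in other barcodes with over 2000 genes, with 8852 against 15097 UMIs in total; the limit itself requires many mitochondrial UMIs of a barcode that deep.

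**Figure D2:**
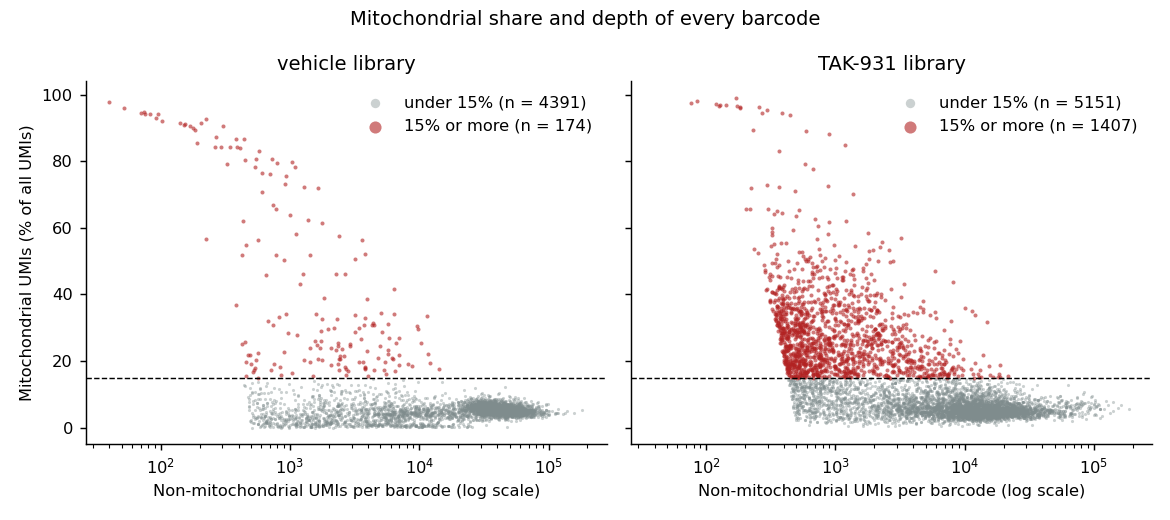
Mitochondrial share (y axis, percent of all UMIs) against non-mitochondrial UMIs per barcode (x axis, log scale), with 1 point per barcode, for each library; the dashed line is the 15% limit. Members lie above the line and to the left, with medians of 1469 and 824 non-mitochondrial UMIs against 33139 and 10451 below it.

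Near the limit there was no gap in the TAK-931 library, where 95 barcodes had a share of 14 to 15% and 91 a share of 15 to 16%, with median non-mitochondrial UMIs of 1878 and 1312. In the vehicle library 3 barcodes lay just under and 6 just over, with medians of 4405 and 1182.5. Further up the libraries parted. Of the vehicle members 39 held 75% or more mitochondrial UMIs, and 49, the most in any band, held 20 to 30%, while in the TAK-931 library 22 held 75% or more, 518 held 20 to 30% and 429 held 30 to 50%. Median mitochondrial UMIs per barcode went from 236 at 15 to 20% to 424 at 30 to 50% and 4617 at 75% or more in the TAK-931 library, and from 573 to 1689 and 1850 in the vehicle library. Barcodes at the top of the range thus carried many mitochondrial UMIs, with medians of only 266 and 243.5 others.

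The make-up of the mitochondrial RNA itself was not used by the rule, and it differed a little between members and other barcodes in the same way in both libraries. The transcript that stood out was mt-Atp8, a subunit of ATP synthase, which took 0.481% of mitochondrial UMIs in vehicle members against 0.281% in the others, 1.71-fold more. Under TAK-931 it took 0.551% against 0.295%, 1.87-fold more. Also higher were mt-Nd4l, a subunit of respiratory complex I, at 0.795% against 0.572% under vehicle and 0.818% against 0.513% under TAK-931, and mt-Nd6 of the same complex, 1.53-fold and 1.46-fold more. Abundant transcripts differed less: mt-Atp6 was at 21.6% against 18.9% and 22.1% against 19.7%, whereas mt-Co1, the catalytic subunit of cytochrome oxidase, was lower at 16.2% against 19.0% and 15.5% against 18.5%. The remaining ratios did not all share a direction, as mt-Nd4 stood at 0.910 under vehicle and 1.06 under TAK-931. When each barcode was given the same weight the mt-Atp8 ratio was 1.89 and 1.59. By class (defined below) it was 0.495% against 0.284% in monocyte/macrophage-like and 0.534% against 0.276% in T/NK-like barcodes of the TAK-931 library, 0.435% against 0.431% in endothelial-like and 0.520% against 0.599% in neutrophil-like ones, so it was not shared by every class.

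Both mt-Atp8 and mt-Nd4l end inside the next gene and sit with it on a single transcript, so that UMIs near their 3′ ends cannot be assigned with certainty. In mm10 (GENCODE vM21 annotation) mt-Atp8 lies on the plus strand at chrM:7766-7969 and mt-Atp6 starts at 7927, while mt-Nd4l lies at chrM:9877-10173 and mt-Nd4 starts at 10167. Their sequences, read from that assembly, are shown because they are among the transcripts whose share differed most and because the overlap bears on how they were counted; capitals mark the 43 and 7 bases shared with the following gene.
mt-Atp8: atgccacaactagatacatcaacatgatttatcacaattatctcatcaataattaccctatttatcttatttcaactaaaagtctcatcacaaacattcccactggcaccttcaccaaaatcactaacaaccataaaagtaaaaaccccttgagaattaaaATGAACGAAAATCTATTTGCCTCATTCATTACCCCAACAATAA
mt-Nd4l: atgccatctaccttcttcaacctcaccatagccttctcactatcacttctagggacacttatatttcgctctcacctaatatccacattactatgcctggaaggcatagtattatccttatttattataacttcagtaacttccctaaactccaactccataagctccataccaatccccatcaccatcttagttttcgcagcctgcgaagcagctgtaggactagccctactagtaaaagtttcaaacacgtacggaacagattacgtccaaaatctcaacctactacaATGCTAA

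To compare members with other barcodes at the same depth, the non-mitochondrial UMIs of each barcode were thinned at random to 500, which left out 41 vehicle and 340 TAK-931 members that had fewer. The 133 and 1067 members kept were set against 4379 and 5088 barcodes under the limit of their own library. The level of a gene is given as CPM, counts per 1000000 thinned non-mitochondrial UMIs, and a difference in level as the log2 ratio of members over other barcodes. Thinning evens out the number of UMIs and not their origin: the barcodes kept had median unthinned depths of 2344 against 33206 under vehicle and 1175 against 10549.5 under TAK-931. RNA released into the suspension takes a larger part of a small barcode, and this was not tested.

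Each thinned barcode was given a lineage class from lists of marker genes that left out the markers named below, and was left unclassed where no list reached 3 UMIs and 2 times the next. In the TAK-931 library the largest class of members was monocyte/macrophage-like, 543 of 1067 (50.9%), the same share as among the other barcodes (50.8%; difference 0.0845 points, -3.21 to 3.38). Stromal and vascular classes were more common among the members. Endothelial-like barcodes were 7.12% against 3.11%, 4.02 points more (2.53 to 5.78), and fibroblast/mural-like ones 5.62% against 2.28%, 3.34 points more (2.03 to 4.94). T/NK-like barcodes were rarer, 53 or 4.97% against 19.5%, 14.5 points less (-16.1 to -12.7). Members also held 16 neutrophil-like (1.5% against 1.04%), 6 tumour (plasmacytoma)-like (0.562% against 1.40%), 2 dendritic-like and 4 of the library's 6 skeletal muscle-like barcodes, and 307 (28.8% against 21.5%) stayed unclassed. These differences depended on depth, as given next.

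Seen from the class, 34.1% of fibroblast/mural-like barcodes in the TAK-931 library were over the limit (27.1 to 41.6%), as were 32.5% of endothelial-like (26.5 to 38.9%), 17.4% of monocyte/macrophage-like (16 to 18.7%) and 5.08% of T/NK-like ones (3.83 to 6.59%). The first 2 intervals do not overlap the last 2, but a high share was not particular to the first 2 classes. It was 23.2% in 69 neutrophil-like barcodes (13.9 to 34.9%) and 66.7% in 6 skeletal muscle-like ones (22.3 to 95.7%). Both of these intervals overlap the first 2, and that of 77 tumour (plasmacytoma)-like barcodes does not (7.79%, 2.91 to 16.2%). In the vehicle library the classes named first kept their order at lower values. Members were 16.9% of 71 fibroblast/mural-like, 8.70% of 92 endothelial-like and 0.822% of 365 monocyte/macrophage-like barcodes. They were 0 of 67 T/NK-like ones, for which the upper bound is 5.36%, and 8.11% of 37 neutrophil-like ones (1.70 to 21.9%). Of 1133 tumour (plasmacytoma)-like barcodes in the vehicle library, 11 (0.971%) were members. The class rule left 71.4% of vehicle members and 60.4% of the other vehicle barcodes unclassed, so vehicle classes describe a minority. Of the members kept, 34 and 266 had 2 or 3 UMIs of their leading list, next to the minimum of 3.

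From 500 to under 2000 non-mitochondrial UMIs, where 750 of the 1067 TAK-931 members lay, the differences in class shares were not those over all depths. Endothelial-like barcodes were 2.8% of both (-1.77 to 1.74 points), T/NK-like ones 2.4% against 3.78% (-3.26 to 0.41 points), fibroblast/mural-like ones 3.47% against 1.68% (1.79 points, 0.14 to 3.51) and monocyte/macrophage-like ones 61.1% against 67.9% (-11.7 to -1.96 points), while 28% against 21.6% stayed unclassed (2.00 to 10.8 points). The endothelial and T/NK differences of the TAK-931 library were thus not clear of 0 in that band and lay in deeper barcodes. Vehicle members of the band were 13.3% fibroblast/mural-like against 1.26% of the others (12.1 points, 5.45 to 22.9) and 3.33% monocyte/macrophage-like against 18.1% (-19.5 to -6.01 points). They were 6.67% endothelial-like against 1.76% (4.91 points, 0.47 to 14.2), on 4 members. From 2000 to under 5000 UMIs 18.2% of 214 members were endothelial-like against 1.96% of 663 others (16.3 points, 11.5 to 22), 10.7% against 0.603% were fibroblast/mural-like (10.1 points, 6.54 to 15) and 10.7% against 40.4% were T/NK-like (-29.7 points, -34.8 to -23.6). In that band 39 of 52 endothelial-like barcodes (75%) and 23 of 27 fibroblast/mural-like ones (85.2%) were over the limit, against 27.9% of monocyte/macrophage-like and 7.90% of T/NK-like ones. At 5000 or more 11.3%, 9.91%, 1.51% and 1.69% of these 4 classes were members.

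With over 2000 genes, where the mitochondrial limit alone acts, the stromal classes again had the larger shares over the limit. In the TAK-931 library 12.7% of endothelial-like barcodes (17) and 9.09% of fibroblast/mural-like ones (10) were members, against 1.40% of monocyte/macrophage-like (27) and 1.44% of T/NK-like ones (9). In the vehicle library 2 of the 10 were fibroblast/mural-like and 8 unclassed.

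Depth differed by class. These values are part of the rule, which sets the least mitochondrial UMIs a member can hold beside its other UMIs, so they describe the members and test nothing. Monocyte/macrophage-like members of the TAK-931 library had fewer mitochondrial UMIs than their class (median 317 against 610) and 13.8-fold fewer others (862 against 11917). Fibroblast/mural-like members had 1060.5 against 1256 mitochondrial and 2159.5 against 23521.5 other UMIs, a 10.9-fold drop. Endothelial-like members matched their class in mitochondrial UMIs (939.5 against 920) with 3.02-fold fewer others. In T/NK-like members mitochondrial UMIs were 1.69-fold higher (786 against 464) beside 2.89-fold fewer others, and in the 16 neutrophil-like members, from a cell type with little RNA, they were 3.49-fold higher (554.5 against 159) with 1888 against 2456 others. The 4 skeletal muscle-like members had a median of 1743.5 mitochondrial and 782.5 other UMIs, a mitochondrial share of 67.7%. Vehicle tumour (plasmacytoma)-like members had 1464 against 2191 mitochondrial and 3449 against 38119.5 other UMIs, 11.1-fold fewer.

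**Figure D3:**
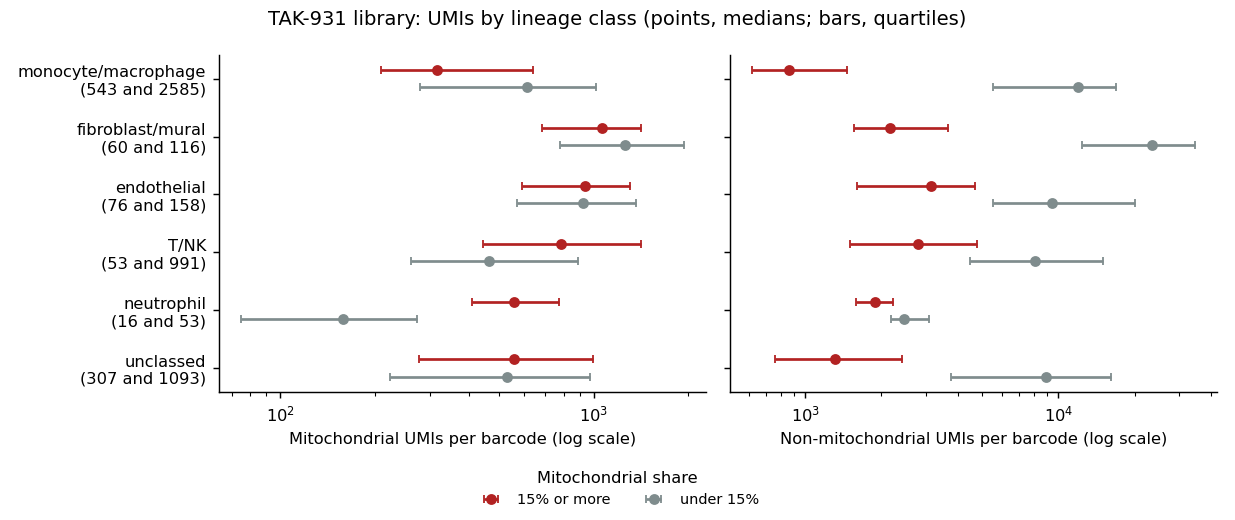
Mitochondrial (left) and non-mitochondrial (right) UMIs per barcode (x axes, log scale) by lineage class in the TAK-931 library; points are medians, bars span the quartiles, and the numbers under each class are its members and its other barcodes. Monocyte/macrophage-like members are lower on both axes, and neutrophil-like members are higher in mitochondrial UMIs (554.5 against 159) and close in the others.

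Most list genes were detected in the members: in the TAK-931 library all 14 of the monocyte/macrophage list, 14 of 17 of the T/NK list, all 12 of both the endothelial and the fibroblast/mural list and 8 of 10 of the neutrophil list. Markers outside the class lists checked these classes. Lyz2, the lysozyme of myeloid cells, was detected after thinning in 67.0% of monocyte/macrophage-like members and 17.0% of T/NK-like members, against 79.3% and 6.26% of other barcodes of those classes. Pecam1, a junction protein of endothelium, was found in 42.1% of endothelial-like and 2.03% of monocyte/macrophage-like members. Cd3e, a chain of the T cell receptor complex, was found in 18.9% of T/NK-like members against 29.2% of other T/NK-like barcodes (-19.1 to 2.49 points), and in 0.368% of monocyte/macrophage-like members. S100a8, a granule protein of neutrophils, was found in 75% of neutrophil-like members against 86.8% of the others of that class (-37.2 to 7.05 points), and in 0% of 53 T/NK-like members. These values cover only members that held enough list UMIs to be classed, and say nothing of the unclassed ones.

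Over all members of the TAK-931 library, Cd3e was detected in 1.87% against 7.45% of other barcodes, 5.57 points less (-6.58 to -4.36), and Pecam1 in 7.40% against 4.70%, 2.71 points more (1.16 to 4.52), but at 500 to under 2000 UMIs these were 1.6% against 1.54% (-1.32 to 1.42 points) and 4.27% against 3.92% (-1.74 to 2.42 points). Lyz2 was in 45.5% against 49.3% and S100a8 in 1.69% against 1.34%, an interval of -0.361 to 1.35 points. In vehicle members Lyz2 was in 3.76% against 6.33%, Pecam1 in 5.26% against 2.49% (2.77 points, 0.0365 to 7.99) and S100a8 in 3.01% against 0.868%. Cd3e had a UMI in 0 of 133 thinned vehicle members (exact upper limit 2.74%) against 0.525% of other barcodes, so no difference was detectable at this depth. Without thinning Pecam1 stood lower in members, 12% against 50.5% under vehicle and 17.3% against 29.4% under TAK-931, with the depths given above.

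The tumour markers differed from other barcodes in ways that depended on library and depth. Trap1a, a tumour antigen gene of mouse plasmacytoma and mastocytoma lines, was detected in 25.6% of vehicle members against 41.0% of other vehicle barcodes, 15.5 points less (-22.3 to -7.32), and in 3.37% against 2.14% in the TAK-931 library, 1.23 points more (0.207 to 2.54). Among barcodes of 500 to under 2000 non-mitochondrial UMIs the Trap1a differences were -11.4 points (-18.2 to -0.54) and 1.35 points (-0.50 to 3.22), and among vehicle barcodes of 2000 or more -4.65 points (-15.1 to 6.92). Unthinned, the TAK-931 difference was -2.29 points. Iglc3, a constant gene of the lambda light chain, was in 80.5% of vehicle members against 85.8% (-5.30 points, -12.9 to 0.642), at 9594 against 28435 CPM. Under TAK-931 it was in 29.9% of members against 11.1%, 18.8 points more (15.9 to 21.7), although only 0.562% of members were tumour (plasmacytoma)-like, and its summed level was 1603 against 1474 CPM. Without thinning the order was opposite, 50.8% against 58.9%, and among barcodes of 500 to under 2000 non-mitochondrial UMIs it was 33.9% against 20%, 13.8 points more (9.32 to 18.3). The vehicle value in that band was 81.7% of members against 72.1%, 9.56 points more, with an interval of -2.76 to 18.6 that included 0. Of the 12 tumour list genes, 7 were detected in the 6 tumour (plasmacytoma)-like TAK-931 members.

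Over all depths the Iglc3 excess in the TAK-931 library was found within classes other than the tumour. It was detected in 33.1% of monocyte/macrophage-like members against 9.05% of the rest of that class (24.1 points, 20.1 to 28.3), in 18.9% against 5.05% of T/NK-like (13.8 points, 5.40 to 26.4) and in 11.8% against 3.80% of endothelial-like barcodes (8.04 points, 1.11 to 17.4). Cells of these types are not known to make immunoglobulin, so these UMIs are not read as expression. The parts of released RNA and of doublets in them were not tested. Over the monocyte/macrophage-like members, Iglc3 had 400 UMIs in 180 barcodes against 336 UMIs in all 2585 others, a log2 ratio of 2.50 (2.29 to 2.72), and Iglc1 had 794 in 263 barcodes, 2.29 (2.15 to 2.43). Igha (2.24), the alpha heavy chain, and Jchain (2.06), which joins immunoglobulin chains, were higher by about as much. Of the 7 immunoglobulin genes counted there 6 were at least 2-fold higher and 0 lower, where 6.73% of all genes in that class were higher and 18.2% lower. Together they were at 5230 against 1110 CPM, or 2.24 (2.13 to 2.34). At 500 to under 2000 UMIs the sum was 1.32 (1.17 to 1.47). Over all depths T/NK-like members had 2.39, fibroblast/mural-like 2.00 and endothelial-like 1.14. At 500 to under 2000 UMIs immunoglobulin genes took 0.489% of thinned UMIs in T/NK-like members against 0.0815% in the others of that class. The values were 0.238% against 0.05% in fibroblast/mural-like and, in the opposite direction, 0.105% against 0.19% in endothelial-like barcodes. These rest on few barcodes, 21 and 20 in the endothelial case. Trap1a was in 2.21% against 0.464% of monocyte/macrophage-like barcodes over all depths.

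Iglc1 and Iglc3 are both constant genes of the lambda light chain, and how surely a read is assigned to either of them was not tested. Among barcodes with at least 20 UMIs of the pair, the median share of Iglc1 was 72.2% in 69 vehicle members, 57.7% in 396 other vehicle barcodes with under 5000 non-mitochondrial UMIs and 65.7% in 3314 deeper ones. A share over 80% was seen in 21 of the 69 members (30.4%, 19.9 to 42.7%), against 7.07% and 4.80%. The TAK-931 medians were 67.6% in 75 members and 62.3% and 65.3% in the others, with 16% of members over 80% (8.55 to 26.3%) against 14.5% (6.50 to 26.7%) and 9.42%, so no such tilt was clear there. Vehicle members were more often tilted to Iglc1 than other vehicle barcodes of either depth.

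Malat1, a long RNA kept in the nucleus, gave a pattern that depended on depth. Its level was higher in members, 25639 against 9376 CPM in the vehicle (log2 1.45, 1.38 to 1.52) and 26225 against 12526 CPM in the TAK-931 library (1.07, 1.04 to 1.09). The share of barcodes with a Malat1 UMI was not higher: 79.7% against 82.2%, and 68.4% against 84.4%, 15.9 points less (-19.0 to -13.0). The higher level was thus carried by a smaller share of the TAK-931 members. Among TAK-931 barcodes with 500 to under 2000 non-mitochondrial UMIs, a Malat1 UMI was seen in 56.7% of 750 members and 35.9% of 714 others, 20.8 points more (15.8 to 25.7). From 2000 to under 5000 UMIs it was in 96.3% of 214 members against 82.8% of 663 others, and at 5000 or more in 96.1% against 94.0%. Monocyte/macrophage-like barcodes alone followed the same course, with 50.3% against 80% at all depths, 42.4% against 26.6% at 500 to under 2000 UMIs and 92.7% against 54.2% at 2000 to under 5000. Vehicle members had 68.3% of 60 against 34.7% of 398 at 500 to under 2000 UMIs and 82.6% against 51.7% at 2000 to under 5000.

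**Figure D4:**
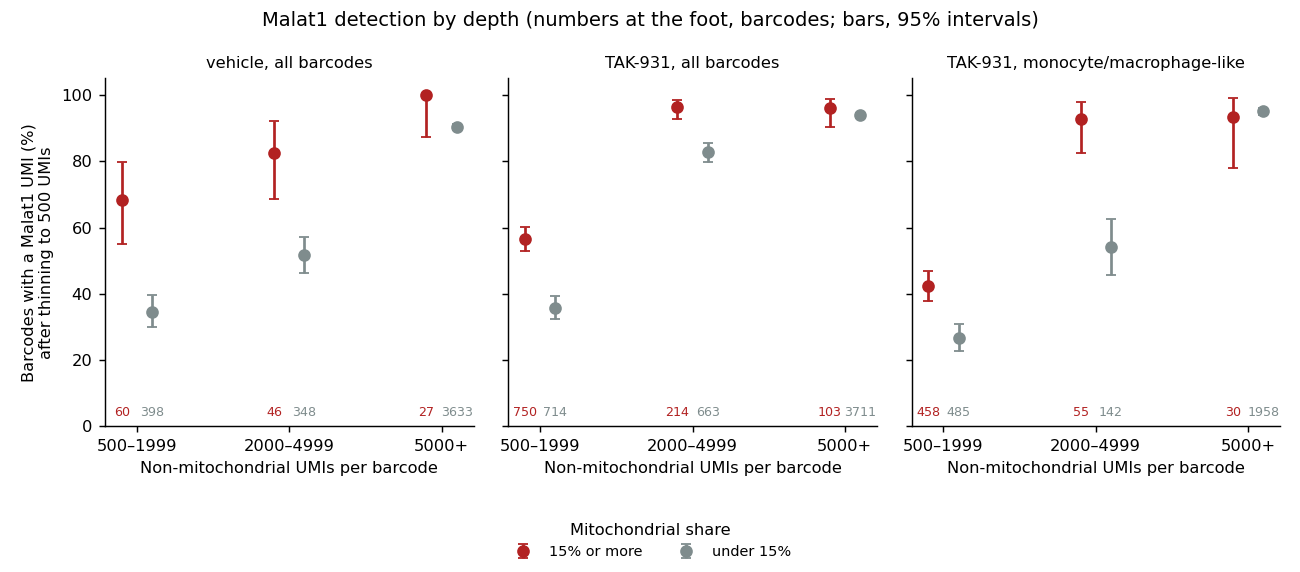
Share of barcodes with a Malat1 UMI after thinning to 500 UMIs (y axis, percent) by non-mitochondrial UMIs per barcode (x axis), in all vehicle barcodes, all TAK-931 barcodes and TAK-931 monocyte/macrophage-like barcodes, with exact 95% intervals and the number of barcodes at the foot. Members lie above the other barcodes at 500 to under 2000 and 2000 to under 5000 UMIs, and the groups come together at 5000 or more.

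The other nucleus-retained RNAs of the list were Neat1, a scaffold of nuclear paraspeckles, Xist, the RNA that coats the inactive X chromosome, and the imprinted Kcnq1ot1. Xist was higher in members, by 2.36 (46 UMIs against 294) under vehicle and 0.81 under TAK-931, and Neat1 by 0.82 and 0.28. Meg3, an imprinted long RNA outside the list, had the highest ratio in the TAK-931 library, with 95 UMIs in 34 of 1067 members against 58 in all 5088 others (2.97, 2.48 to 3.46). Kcnq1ot1 was at 0.064 with an interval of -0.82 to 0.83 under vehicle and at -0.43 (-1.01 to 0.10) under TAK-931. Of the 4 RNAs of the list 2 were at least 2-fold higher and 0 lower under vehicle (sum 1.44), and 1 higher and 0 lower under TAK-931 (sum 1.03), where 16.7% and 11% of all genes counted by the same rule were higher. At 500 to under 2000 UMIs 2 of 3 counted were higher under vehicle (sum 1.57) and 4 of 4 under TAK-931 (sum 1.47), Kcnq1ot1 among them, with 0 lower in either. Of all genes 8.76% and 18.4% were higher there. Over all depths fibroblast/mural-like members had the most, with Malat1 at 101033 against 24638 CPM (2.04, 1.94 to 2.13).

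Higher still were 4 gene models whose reads are often of ribosomal RNA origin. On chromosome 17 of mm10, Gm42418 (chr17:39846958-39848788, plus strand) is overlapped on the minus strand by AY036118 (chr17:39847113-39848035) and follows Gm26917 (chr17:39843013-39846341), and Lars2 (chr9:123366927-123462666), the gene of the mitochondrial leucyl-tRNA synthetase, holds a stretch that resembles ribosomal RNA. Whether a UMI came from the gene or from ribosomal RNA cannot be told from the counts. All 4 were at least 2-fold higher in members of both libraries, at 76932 against 9060 CPM together in the vehicle (3.09, 3.04 to 3.13) and 95306 against 21516 CPM in the TAK-931 library (2.15, 2.13 to 2.16). Gm42418 made up most of it (3.32 and 2.05). Lars2 had 199 UMIs in 64 vehicle members against 544 in all 4379 others (3.59, 3.35 to 3.83) and 1209 UMIs in 551 TAK-931 members (2.46, 2.34 to 2.58), the highest of the genes common to both libraries. Among barcodes of 500 to under 2000 UMIs the sums were 1.82 and 0.73, and 2 of the 4 under vehicle and 0 under TAK-931 were still at least 2-fold higher. Of all genes with at least 10 UMIs in both groups together 8.76% and 18.4% were higher there.

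The share of these 4 models in unthinned non-mitochondrial UMIs was larger in members than under 5% mitochondrial, but did not rise at every step. In the TAK-931 library it was 0.915% in barcodes under 5% mitochondrial, 2.33% at 10 to 15%, 4.60% at 15 to 20%, 10.1% at 30 to 50%, 15% at 50 to 75% and 11.6% at 75% or more. In the vehicle library it went from 0.281% through 3.30%, 4.53% and 4.09% to 9.74% and 9.66% in the same bands. Depth ran with these bands: the TAK-931 median fell from 12300 non-mitochondrial UMIs under 5% mitochondrial to 243.5 at 75% or more. Among TAK-931 barcodes under the 15% limit the models took 6.52% of thinned UMIs at 500 to under 2000 and 1.21% at 5000 or more. The part of depth in the differences between bands was not tested. Ribosomal protein genes behaved differently in the libraries: from 27.7% under 5% mitochondrial to 57.3% at 75% or more in the vehicle, and from 22.1% to 12.9% at 50 to 75% and 27.5% at 75% or more in the TAK-931 library. Malat1 went the other way at the top of the vehicle range, with 3.98% at 30 to 50% and 0.212% at 75% or more.

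At 75% or more mitochondrial UMIs, Gm42418 led in both libraries with 9.13% and 10.2% of non-mitochondrial UMIs. In the 39 vehicle barcodes the ribosomal protein genes Rps29 (2.21%) and Rpl37a (2.19%) were among the next, and Iglc1 was at 1.41% against 5.87% in the other vehicle members. In the 22 TAK-931 barcodes Iglc1 was at 1.83% (138 UMIs in 17 barcodes) against 0.337% in the other members. Acta1, the actin of skeletal muscle, had 70 UMIs there in 4 barcodes (0.927%). This band was thus not 1 kind of barcode.

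Across all genes, 35 of 4958 (0.706%) were at least 2-fold higher and 2272 (45.8%) at least 2-fold lower in vehicle members, where a gene needed 20 UMIs in the higher group. Among TAK-931 barcodes 232 of 6417 (3.62%) were higher and 795 (12.4%) lower. The unequal split follows in part from the rule, because the 133 vehicle members held few UMIs and a gene could be counted as lower from a handful. With genes that would have reached 20 UMIs in both groups at equal levels, 17 of 407 (4.18%) were higher and 157 (38.6%) lower in the vehicle, and 91 of 3600 (2.53%) and 238 (6.61%) in the TAK-931 library. At 500 to under 2000 UMIs 18 of 1030 (1.75%) were higher and 477 (46.3%) lower under vehicle, where the members again held far fewer UMIs than the others, and 335 of 2595 (12.9%) and 53 (2.04%) under TAK-931, where the groups were of like size. With 20 UMIs expected in both groups these were 4 of 182 (2.2%) and 44 (24.2%) under vehicle, and 177 of 2117 (8.36%) and 30 (1.42%) under TAK-931, so the vehicle's split was less uneven by that rule. With 10 UMIs in both groups together, as for the lists, 18.4% were higher and 3.8% lower under TAK-931. In TAK-931 monocyte/macrophage-like barcodes 41 of 4396 (0.933%) were higher and 973 (22.1%) lower.

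Among the genes with the highest ratios in both libraries were 3 collagens, beside the larger share of fibroblast/mural-like barcodes among the members. They were named for being high, and no list of matrix genes was counted. Col1a1 and Col1a2 are in the fibroblast/mural class list and Robo4 is in the endothelial one. Their ratios and the shares of those classes are thus not independent. Col1a1, a chain of fibrillar collagen, had 75 UMIs in 14 vehicle members against 208 in all others (3.57, 3.17 to 3.96), and stood at 1.58 in the TAK-931 library. Col4a1 (2.76 and 1.64) and Col4a2 (2.31 and 1.46), chains of basement membrane collagen, followed. Vehicle members further had Col1a2 (2.70), Igfbp7 (2.38), a secreted protein of vessels, Fabp4 (1.56), a fatty acid carrier of capillaries and fat, and Hist1h1e (1.52), a linker histone. TAK-931 members had Aebp1 (2.65) and Col5a3 (2.74) of the matrix, Robo4 (2.31), a receptor of endothelium, Pcdh17 (2.77), a protocadherin, Syne1 (2.51), a nuclear envelope protein, Cd5l (2.77), a secreted protein of macrophages, Fam117a (2.35) and Rmrp (2.75), the RNA of a ribonuclease that processes ribosomal RNA. Their UMIs in members were few, 20 for Cd5l to 122 for Aebp1.

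Haemoglobin genes of red cells were the lowest in vehicle members. Hbb-bs had 0 UMIs in members against 6477 in others, at least 65.6-fold lower by a floor of 3 counts over the group, Hba-a2 0 against 1776 (at least 18.0-fold) and Hbb-bt 0 against 447 (at least 4.53-fold), and Hba-a1 had 1 against 2311. These counts rest on barcodes with at least 500 non-mitochondrial UMIs: when thinned to 200, which let in members with 200 to under 500, Hbb-bs stood at 0.30 and Hba-a2 at 0.28. Ccl5, a chemokine of activated T and NK cells, had 1 UMI against 608. Nudc (1 against 583), Eif6 (0 against 392, at least 3.97-fold), Snrpc (0 against 360, at least 3.64-fold), Pfdn2 (0 against 324, at least 3.28-fold) and Ahsa1 (0 against 287, at least 2.91-fold) act in protein folding, ribosome assembly and splicing.

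In the TAK-931 library the lowest genes were rare ones: Susd3 had 0 UMIs in members against 56 in others (at least 3.91-fold lower), St3gal6, a sialyltransferase, 0 against 43 (at least 3.01-fold), Lpcat4 0 against 36 (at least 2.52-fold) and Stard4, a sterol carrier, 0 against 33 (at least 2.31-fold). Ncr1, a receptor of NK cells, had 0 against 25 (at least 1.75-fold), beside the smaller share of T/NK-like barcodes, in whose class list it stands. Nanp, Piga, Tmem229b, Tnfsf13os and Eef1akmt4 had 0 against 24 to 27. In both libraries Eef1akmt4, a methyltransferase of a translation factor, had 0 UMIs in members, and Psmg2, a chaperone of proteasome assembly, was lower (-2.62 and -2.79). Several of these genes changed sign with another thinning, as listed in the closing section.

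Within classes, Lars2 was among the 5 highest genes of all 4 classes compared in the TAK-931 library. In monocyte/macrophage-like members Rmrp (3.07), Iglv1 (2.75), Iglc3, Iglc1 and Lars2 (2.29) were highest. Med13l, a Mediator subunit, had 0 UMIs against 63 (at least 4.41-fold lower). T/NK-like members were highest for Iglc1 (2.42), Lars2 (2.29), AY036118 (1.49), Laptm5 (1.18) and Xist (1.15), and lowest for the proliferation genes Pclaf (0 UMIs against 101, at least 1.80-fold lower) and Hist1h1b (0 against 83, at least 1.48-fold lower), on few UMIs. Endothelial-like members were highest for Ankrd11 (2.01), Nufip2 (1.86), Lars2 (1.77), AY036118 (1.51) and Map4k4 (1.33), and lowest for Slc25a5 (-3.34), the ADP/ATP carrier of mitochondria, and Srgn (-2.99), a granule proteoglycan. Fibroblast/mural-like members were highest for Lars2 (2.74), AY036118 (2.61), Ebf1 (2.11), a transcription factor of mural cells, Malat1 and Iglc1 (1.84), and lowest for Ctla2a (0 against 33, at least 5.69-fold lower) and then Fxyd5, Anxa2, Sfrp4 and Timp1, with 1 UMI each.

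Gene lists were counted over genes with at least 10 UMIs in members and others together. By that rule 1585 of 9489 genes (16.7%) were at least 2-fold higher and 2272 (23.9%) at least 2-fold lower in vehicle members, with a median log2 ratio of -0.11. For TAK-931 these were 1177 of 10718 (11%) and 1145 (10.7%), with a median of -0.05. Among genes abundant enough to reach 20 UMIs in both groups at equal levels, the medians were -0.74 under vehicle and -0.21 under TAK-931, and 38.6% and 6.61% were lower. Lists of abundant genes are read against these values too.

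Genes of mitochondrial proteins encoded in the nucleus did not share the high level of the mitochondrial transcripts. Of 53 nuclear-encoded respiratory chain genes 0 were higher and 25 lower in vehicle members (median -0.89), with Ndufa4 at -1.78, and 0 were higher and 1 lower in TAK-931 members (median -0.12). Genes of mitochondrial import and dynamics were 2 higher and 10 lower of 24 in the vehicle (median -0.76). Both vehicle medians were close to the -0.74 of abundant genes. In monocyte/macrophage-like members the respiratory sum was 0.16, and -0.28 at 500 to under 2000 UMIs. Over all TAK-931 members of that band 0 of 53 respiratory genes passed 2-fold, but 50 were lower by any amount (median -0.37). Abundant genes had a median of -0.02 there.

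Over all depths cytosolic ribosome genes stood above the background in vehicle members and at the background in TAK-931 members. Of 77 counted, 7 were at least 2-fold higher and 1 lower in vehicle members (median 0.41, sum 0.43, 0.41 to 0.44), with Fau (1.04) and Rps27a (0.94) among the most abundant. In TAK-931 members 0 passed 2-fold either way (median -0.21, that of abundant genes; sum -0.19, -0.20 to -0.18), and monocyte/macrophage-like members were at 0.13 over all depths and -0.17 (-0.19 to -0.16) at 500 to under 2000 UMIs. Over all TAK-931 members of that band 0 passed 2-fold, but 75 of 77 were lower by any amount (median -0.31). Abundant genes had a median of -0.02 there, so the list lay below the background at that depth. Translation factors were 2 higher and 9 lower of 30 in the vehicle, a median of -0.75 that was also close to that of abundant genes, with Eef1a1, the elongation factor that brings tRNAs to the ribosome, at -0.95. In fibroblast/mural-like members 0 ribosome genes were higher and 19 of 77 lower (median -0.74), where 114 of 1333 genes (8.55%) were higher and 387 (29%) lower. Abundant genes had a median of -0.67 there, so the list was near that background.

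Heat shock genes were 2 higher and 6 lower of 12 in vehicle members (sum -1.11, -1.28 to -0.95), with the chaperones Hsp90ab1 at -1.33 and Hspa8 at -0.96. At 500 to under 2000 UMIs 2 of 10 were higher and 4 lower, and the sum was -0.68 (-0.93 to -0.43), where 8.76% of all genes counted by the same rule were higher and 36.1% lower with a median of -0.59. The list's median of -0.46 and its count of lower genes were near that background. In TAK-931 members 2 were higher and 0 lower (sum 0.21, 0.16 to 0.26), and Hspa1a, the inducible Hsp70, had 762 UMIs against 1344 (1.43, 1.30 to 1.56). Of 16 immediate early genes, which respond to stimuli within minutes, 5 were higher and 2 lower under vehicle and 2 higher and 0 lower under TAK-931. Jun, a subunit of the AP-1 factor, was higher in both, at 1.25 and 1.62 (1.47 to 1.76), while its relative Jund was at -1.06 in the vehicle.

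For monocyte/macrophage-like barcodes the direction of the immediate early list depended on depth. Over all depths 536 of 7964 genes (6.73%) were higher and 1446 (18.2%) lower in members, with a median of -0.18. Immediate early genes were 0 higher and 2 lower of 16 (sum -0.39, -0.46 to -0.31), with Fos at -0.75, and interferon-stimulated genes 0 higher and 8 lower of 18 (sum -0.58, -0.67 to -0.49), with Isg15, an interferon-induced ubiquitin-like protein, at -1.31. Of 9 p53 targets 3 were lower, among them Cdkn1a, the inhibitor p21, at -1.92, and Mdm2, which degrades p53, at -1.32. Of 14 inflammatory genes 6 were lower (median -0.84), among them Cxcl2 (-1.23), but the sum was 0.23, because Ccl8, a monocyte chemokine, was abundant and higher (0.93).

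At 500 to under 2000 UMIs the background in this class was 627 of 4097 genes (15.3%) higher and 200 (4.88%) lower, with a median of 0.08. Of 16 immediate early genes 9 were then higher and 0 lower (sum 1.00, 0.86 to 1.14). Fos had 126 UMIs in members against 66 (1.02), Jun 154 against 35 (2.22) and the phosphatase gene Dusp1 was at 1.19. Among the heat shock genes 3 of 12 were higher and 0 lower, with Hspa1a at 216 against 51 UMIs (2.17) and Hspa1b at 1.80. Ccl8 was then at -0.10, Cxcl2 at 1.06 and the interferon-stimulated sum at -0.24, with 0 higher and 1 lower of 17, near the background share. Of 5 p53 targets and 6 integrated stress response genes counted in that band 0 passed 2-fold either way. The immediate early list was thus the one of these whose count stood well above the background there, and its sign was opposite to that over all depths.

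**Figure D5:**
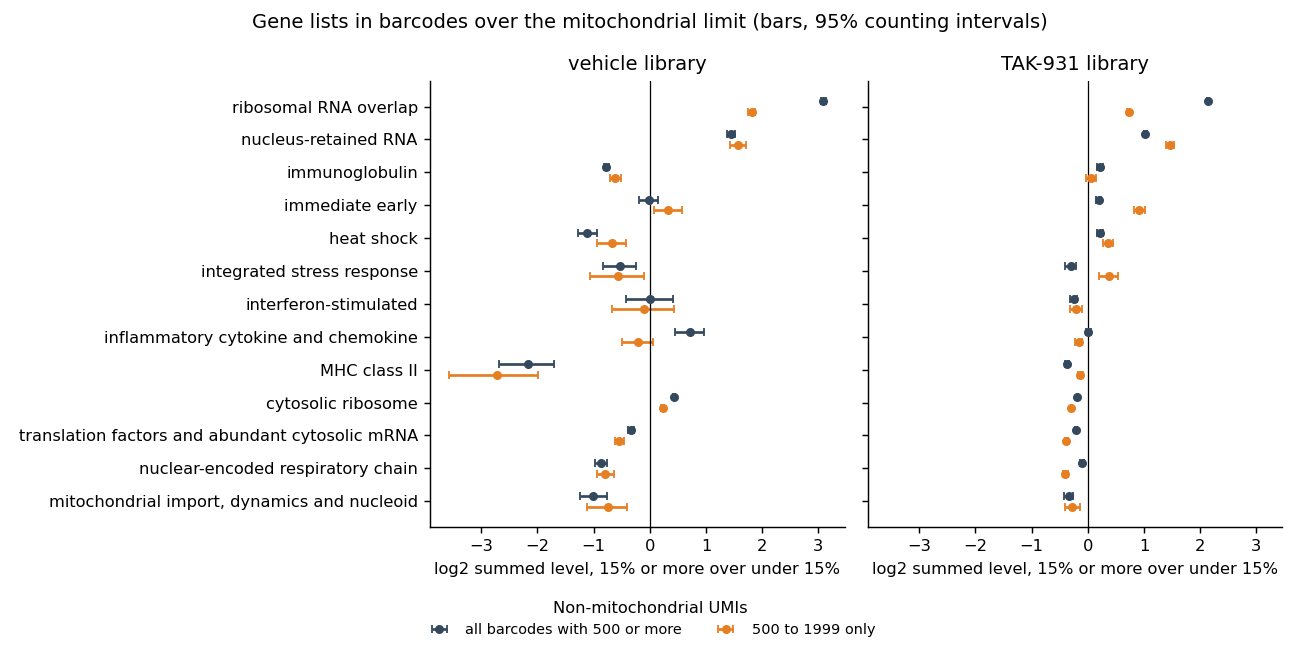
Log2 ratio of the summed level of each gene list in members over barcodes under 15% (x axis), in the vehicle (left) and TAK-931 (right) libraries, for all barcodes with 500 or more non-mitochondrial UMIs and for those with 500 to under 2000 only; bars are 95% counting intervals. The ribosomal RNA overlap and nucleus-retained lists lie to the right of 0 in all 4 comparisons, and the cytosolic ribosome and heat shock lists lie on opposite sides of 0 in the 2 libraries.

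Among other lists, MHC class II genes, which present antigen, were 0 higher and 6 lower of 6 counted in vehicle members (sum -2.17, -2.68 to -1.70), with the invariant chain Cd74 at -2.30, beside 3 monocyte/macrophage-like members in that library. In TAK-931 members 0 of 7 passed 2-fold (sum -0.37). Inflammatory genes were 6 higher and 3 lower of 12 in vehicle members (sum 0.72, 0.45 to 0.97), with Il1b, the cytokine interleukin-1 beta, at 1.60, but at 500 to under 2000 UMIs the sum was -0.21. In TAK-931 members 0 were higher and 4 lower of 15, with Ccl5 at -1.06, and Ccl8 had 2658 UMIs against 6393 (0.99). Fibroblast/mural-like members were lower in 5 of 9 inflammatory genes and higher in 0 (sum -1.52, -1.83 to -1.21), with the chemokines Cxcl1 (6 UMIs against 143) and Ccl2 (9 against 123) at -3.62 and -2.82. Immunoglobulin genes were 0 higher and 3 lower of 8 in vehicle members (sum -0.78, -0.82 to -0.73), with Iglc3 at -1.57 and Iglc1 at -0.50, and 1 higher and 2 lower of 8 in TAK-931 members (sum 0.22, 0.16 to 0.27, but 0.055, -0.029 to 0.14, at 500 to under 2000 UMIs).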

How the data were processed

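Raw UMI counts per gene and barcode were used as deposited by the authors, in 1 filtered matrix of 32285 features per library. The submitters' notes name Cell Ranger 6.0.0 and mm10, whereas the methods name a human build; the features are mouse genes. The members and all gene lists were chosen with earlier results of these data known. No barcode was filtered out and doublets were not removed, and all columns were used.

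Non-mitochondrial UMIs were thinned to 500 per barcode without replacement (seed 1). Thinned barcodes were classed with 12 lineage lists (C1qa and Csf1r for monocyte/macrophage, Cdh5 for endothelial, Col1a1 and Rgs5 for fibroblast/mural, Cd3d for T/NK and Mzb1 for tumour among them) at 3 UMIs and 2 times the next list, and 20 gene lists were summed. Genes were called at 2-fold. Named genes were the markers of the rule, the mitochondrial genes, the 10 highest and 10 lowest ratios per library (5 per class and 5 common to both libraries) with at least 20 UMIs in the higher group, in at least 10 barcodes and with no barcode holding over 25%, and the most abundant genes of each list; unnamed gene models were left out of the leading genes. Some genes that met this rule are not reported here.

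Shares have exact Clopper-Pearson intervals, their differences Newcombe intervals, CPM exact Poisson intervals and ratios exact conditional binomial intervals, at 95%. With 1 library per group no p-value was computed. The steps were tested on simulated data. Python 3.11.15, numpy 2.4.6, scipy 1.17.1, pandas 2.3.3 and matplotlib 3.10.9 were used. Alternatives changed the mitochondrial limit, thinning depth, seed, scaling, UMI minimum, class rule and barcode filter.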

Additional observations from a re-analysis of the deposited data

Results flagged for a closer look

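Over all depths, in 4 measures the members lay on opposite sides of the other barcodes in the 2 libraries, a difference between libraries that was not tested, since each group was 1 library. Detection of Trap1a differed by -15.5 points under vehicle and by 1.23 points under TAK-931, where the interval at 500 to under 2000 UMIs, -0.50 to 3.22, included 0. The summed level of cytosolic ribosome genes was at a log2 ratio of 0.43 in vehicle and -0.19 in TAK-931 members, where the list's median of -0.21 was that of abundant genes and 0 genes passed 2-fold. At 500 to under 2000 UMIs the TAK-931 sum was -0.29, where abundant genes had a median of -0.02. Heat shock genes were at -1.11 and 0.21, and the vehicle sum was -0.68 (-0.93 to -0.43) at 500 to under 2000 UMIs, where all genes had a median of -0.59. Immunoglobulin genes were at -0.78 and 0.22, and at 0.055 (-0.029 to 0.14) for TAK-931 in that band. Tumour (plasmacytoma)-like barcodes made up 25.6% of the other barcodes under vehicle and 1.40% under TAK-931. The part of that difference, and of depth, in these 4 measures was not tested.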

How the results depend on the processing

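No paired analysis was possible because each group was 1 library and the replicate number only names it. Values under another setting are given for the vehicle and then the TAK-931 library, and their causes were not tested. The share of members was 5.70 and 31.7% with a limit of 10%, 3.0 and 15.6% with 20%, 0.290 and 2.65% over 2000 genes, and 2.05 and 11.4% over 500 genes. The fold in median non-mitochondrial UMIs was 14.2 and 8.98 with at least 500 such UMIs, and 11.1 in TAK-931 with a limit of 10%. Unclassed vehicle members were 51.9% with 2 UMIs, 82.0% with 5, 48.5% when thinned to 1000, 86.1% to 200 and 30.8% without thinning. Monocyte/macrophage-like TAK-931 members were 56.1%, 38.3%, 46.6%, 31.6% and 57.5% in the same order, and 61.1% at 500 to under 2000 UMIs.

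The ribosomal RNA overlap sum in the vehicle was 3.02 when scaled without immunoglobulin and haemoglobin, 3.14 and 3.20 with limits of 10 and 20%, 3.18 when thinned to 1000 or 200, 4.09 unthinned and 1.82 at 500 to under 2000 UMIs. In TAK-931 it was 2.21 with median-ratio scaling, 2.12 with a limit of 10%, 2.36 and 2.05 when thinned to 1000 and 200, 2.77 unthinned and 0.73 at 500 to under 2000. Vehicle genes called higher numbered 19 with a minimum of 50 UMIs, 2495 with 1, 17 with 20 expected in both groups, 60 with a limit of 10%, 70 when thinned to 1000, 247 unthinned and 18 at 500 to under 2000, and lower 157 with 20 expected and 477 at 500 to under 2000. TAK-931 genes called higher numbered 72, 3145, 91, 611 (thinned to 1000), 101 (to 200) and 1107 (unthinned), and lower 450, 1476, 238, 505 (limit of 10%) and 53 (500 to under 2000).

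The Trap1a difference in the vehicle was -22.4 points when thinned to 1000 and -32.1 unthinned. For Iglc3 in TAK-931 it was 15.7 with a limit of 10%, 23.2 and 12.4 when thinned to 1000 and 200, 13.8 at 500 to under 2000 and -8.11, of opposite sign, unthinned. The mt-Atp8 ratio was 1.89 in the vehicle with barcodes weighted equally, and 1.59 so or 1.79 with a limit of 10% in TAK-931.

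Other signs turned as follows. Unthinned, Pecam1 was at -38.4 and -12.1 points, and in TAK-931 Trap1a at -2.29, Ncr1 at 0.18 and Tmem229b at 0.26. Thinned to 200, which admits members of 200 to under 500 UMIs, vehicle Hba-a2 was at 0.28, Hbb-bs at 0.30 and the erythroid list at 0.17 (median 0.085), and TAK-931 Piga at 0.30, Psmg2 at 0.18, Rcc1 at 0.075 and Tnfsf13os at 0.56. Thinned to 1000, Rcc1 was at 0.065, Tmem229b at 0.28 and Tnfsf13os at 0.51, and with another seed Tmem229b was at 0.58. At 500 to under 2000 UMIs vehicle S100a8 was at -2.29 points and its inflammatory list at -0.21 (median -0.074), and TAK-931 Cd3e was at 0.0594 and Malat1 detection at 20.8 points. The bands of UMIs for classes, markers, genes and lists, the expected 20 UMIs, equal weighting of barcodes and the limits of 10 and 20% for mitochondrial transcripts were chosen after seeing the data.

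Of 943 values for named genes and gene lists together 235 moved beyond their counting interval and 14 turned. Gene lists gave 360 of these values, of which 157 moved and 2 turned. Of 84 values for markers 16 moved and 6 turned, of 140 for classes 43 and 0, and of 78 for mitochondrial genes 40 and 0. Among the summary results 64 values moved, 1 turned and 55 did neither. The 133 vehicle members kept limit what could be seen in that library.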

Other observations

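Members of 500 to under 2000 non-mitochondrial UMIs gave further leading genes. In the vehicle Igfbp7 had 39 UMIs against 28 (3.21), followed by Spg21 (2.36), Jun (2.06), Lars2 (2.01) and Rrbp1 (1.86), a receptor for ribosomes on the endoplasmic reticulum. In the TAK-931 library Meg3 had 44 UMIs against 2 (4.39) and Gclc, the rate-limiting enzyme of glutathione synthesis, 21 against 1 (4.32), followed by Ralgapa1 (2.87), Pou3f1 (2.68) and Apc (2.67). Lowest there were Gng10 (-1.69), Ppp1cc (-1.59), Prpf38a (-1.46), Gatm (-1.43) and C1d (-1.42). Haemoglobin Hbb-bs had 0 UMIs in 60 vehicle members against 3028 in 398 others of the same depth, at least 152-fold lower. Over all depths it stood at 0.30 when thinning to 200 let in members with 200 to under 500 UMIs.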
